A study of Homo sapiens with 6 samples.

Results

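The human mitochondrial genome carries 37 genes, whose RNA was measured here in A549 cells after knockdown of RPS19. Members were all genes placed on chromosome MT in the authors' deposited table, 37 of 63152 genes counted. They comprise 13 mRNAs, 2 rRNAs and 22 tRNAs. A549 is an established line from a human lung adenocarcinoma. One group (siRPS19) was reverse transfected with a pool of siRNAs against RPS19, a protein of the small cytosolic ribosomal subunit, and the other (siOTP) with a non-targeting siRNA pool, both at 10 nM with the same lipid reagent, and RNA was collected at 72 hours. Each group had 3 biological replicates. The RPS19 pool was of the siGENOME type and the control of the ON-TARGETplus type, so the reagent type differed together with the target and the effects of each cannot be told apart. Bulk counts also cannot tell apart changes in the number of mitochondria, in genome copies and in RNA per copy.

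The mitochondrial genome is a small circle that is read from both strands as long precursor RNAs. In most places tRNAs lie between the mRNAs and rRNAs, and the precursors are cut at the tRNA ends to release them. All proteins it encodes are subunits of respiratory chain complexes or of ATP synthase, built together with subunits made from nuclear genes, while the enzymes that copy, transcribe, cut and translate it are all nuclear. The heavy-strand genes in this text (12 mRNAs, both rRNAs and 14 tRNAs) are those annotated on the plus strand, and the light-strand genes (MT-ND6 and 8 tRNAs) those on the minus strand.

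The sequences below are the genes on which the results turn. They were taken from GENCODE 29 by gene identifier, and for 37 of 37 genes the coordinates were those of the authors' table. The first set is the 5 tRNA genes with a testable number of reads, all on the light strand and printed 5′ to 3′ in the sense of the tRNA, with the anticodon in capitals. Their positions are chrM:5587-5655 for MT-TA (alanine), chrM:5657-5729 for MT-TN (asparagine), chrM:5761-5826 for MT-TC (cysteine), chrM:5826-5891 for MT-TY (tyrosine) and chrM:15956-16023 for MT-TP (proline).
MT-TA: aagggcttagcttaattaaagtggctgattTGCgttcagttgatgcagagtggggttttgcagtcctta
MT-TN: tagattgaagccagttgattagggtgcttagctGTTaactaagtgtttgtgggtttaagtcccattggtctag
MT-TC: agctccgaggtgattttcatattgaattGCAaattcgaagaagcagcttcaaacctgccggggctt
MT-TY: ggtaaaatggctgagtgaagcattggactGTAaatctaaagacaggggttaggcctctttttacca
MT-TP: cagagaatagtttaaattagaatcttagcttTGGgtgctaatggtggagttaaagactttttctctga

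MT-ND3, a subunit of complex I, is shown because it was the mRNA that passed the test. Its 346 bases on the heavy strand leave 1 base after the last whole codon, and the stop codon is completed by the poly(A) tail. The last 300 bases (chrM:10105-10404) are printed with that final base in capitals. Of the 13 mRNA genes, 6 end in this way with bases left over and 7 do not.
MT-ND3: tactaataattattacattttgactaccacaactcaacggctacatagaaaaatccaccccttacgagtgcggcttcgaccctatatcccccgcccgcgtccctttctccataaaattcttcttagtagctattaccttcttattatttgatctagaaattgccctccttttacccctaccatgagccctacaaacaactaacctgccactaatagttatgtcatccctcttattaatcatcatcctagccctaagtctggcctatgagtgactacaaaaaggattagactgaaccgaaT

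MT-ATP8 with MT-ATP6 and MT-ND4L with MT-ND4 are each translated from a shared mRNA, and their reading frames overlap. The last 60 bases of the upstream gene and the first 60 of the downstream gene are printed with the shared bases in capitals, because reads in the overlap cannot be given to one gene. The overlap is 46 bases for MT-ATP8 (chrM:8513-8572) and MT-ATP6 (chrM:8527-8586), and 7 bases for MT-ND4L (chrM:10707-10766) and MT-ND4 (chrM:10760-10819).
MT-ATP8: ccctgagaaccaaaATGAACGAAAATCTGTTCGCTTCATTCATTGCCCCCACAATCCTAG
MT-ATP6: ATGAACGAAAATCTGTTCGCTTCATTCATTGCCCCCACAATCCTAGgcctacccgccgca
MT-ND4L: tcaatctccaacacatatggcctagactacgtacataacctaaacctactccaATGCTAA
MT-ND4: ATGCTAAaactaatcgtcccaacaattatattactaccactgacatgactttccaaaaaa

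The libraries held 20814110 to 23889372 counts on genes. RPS19 counts were 27124 to 30731 in siOTP and 830 to 1159 in siRPS19, and the knockdown amounted to -5.14 ± 0.09 (SE) in log2 fold change. All 5 epithelial markers had at least 10 counts in every library, whereas of 5 alveolar type II markers 1 had. That was the lipid transporter ABCA3, with 1155 to 1315 counts in siOTP and 3866 to 4363 in siRPS19, while SFTPB had 5 to 15 counts, SFTPC at most 5, and SFTPA1 and NKX2-1 had 0 in all. Most genes differed between the groups: 78.3% of 17171 tested genes passed edgeR's quasi-likelihood test at an adjusted p below 0.05, 39.5% higher and 38.9% lower. Counts were scaled with TMM factors, which set the median log2 fold change of all genes to 0.02. Scaling by library totals moved that median to 0.31, and values on that scale are given where they differ in direction or call.

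Mitochondrial genes took a larger mean share of the gene counts in siRPS19 than in siOTP, but the libraries overlapped. The share was 4.02%, 4.30% and 2.45% in siOTP replicates 1, 2 and 3, and 6.60%, 3.87% and 4.45% in siRPS19 replicates 1, 2 and 3. The means were 3.59% ± 0.996 and 4.98% ± 1.44 (SD, n = 3), a difference of 1.39 percentage points. The highest share was in siRPS19 replicate 1 and the lowest in siOTP replicate 3, while siRPS19 replicate 2 lay below siOTP replicates 1 and 2. Without siRPS19 replicate 1 the difference was 0.572 points, and without siOTP replicate 3 it was 0.816 points.

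The mRNAs of a library were high or low together. In all 13 mRNAs siRPS19 replicate 1 had the highest CPM (counts scaled to a common library size with TMM factors) of the 6 libraries, and siOTP replicate 3 had the lowest CPM in its group. The order between the groups differed by replicate number, whose libraries carry the same date in the labels of both groups: siRPS19 was above siOTP for 13 of 13 mRNAs in replicates 1 and 3 and below it for 12 of 13 in replicate 2, with MT-ND3 as the exception. The coefficient of variation between replicates was 20.9% to 31.1% across the mRNAs in siOTP and 15.1% to 36.1% in siRPS19. For the 556 non-mitochondrial genes with at least as high a mean CPM as the lowest mRNA, the median coefficient of variation was 2.66% in siOTP and 3.33% in siRPS19. Standard errors of the mRNA log2 fold changes were 0.22 to 0.39, against a median of 0.08 over all tested genes.

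**Figure D1:**
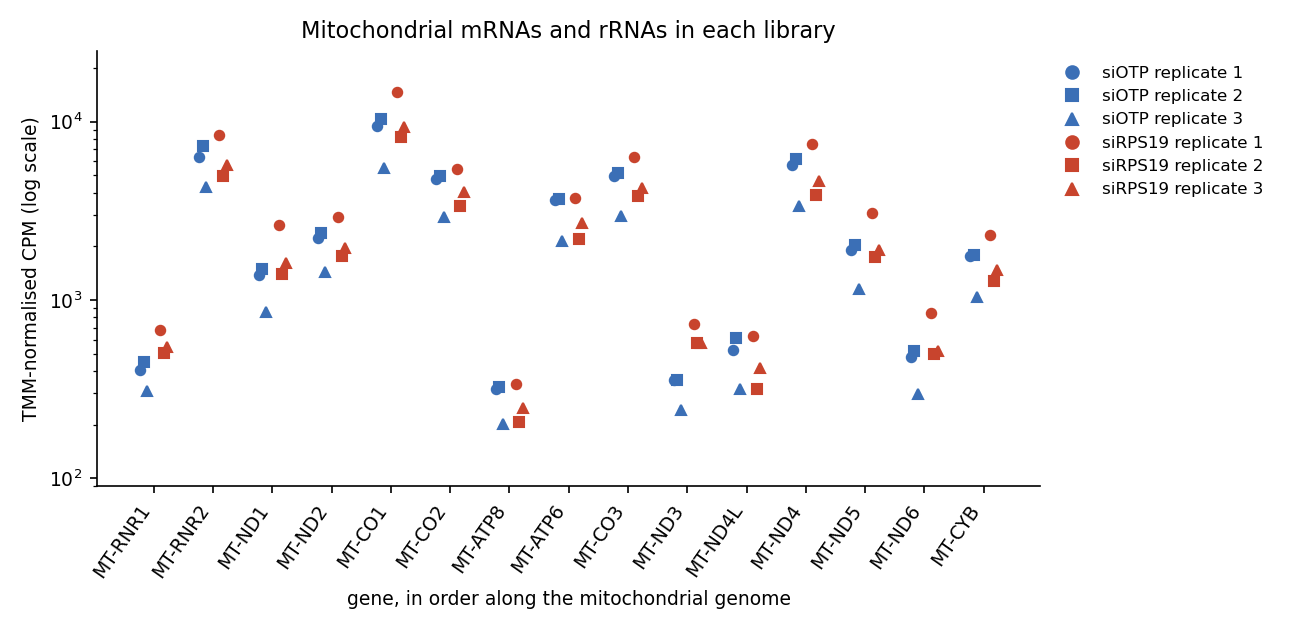
TMM-normalised CPM on a log scale for the 13 mRNAs and 2 rRNAs in genome order, with 1 point per library (blue siOTP, red siRPS19, symbol by replicate number). siRPS19 replicate 1 is the highest point and siOTP replicate 3 the lowest of its group for all 13 mRNAs, and MT-ND3 is the mRNA whose groups do not overlap.

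Of the 37 genes, 20 had enough counts to be tested: 13 mRNAs, both rRNAs and 5 tRNAs. Of these, 6 were higher in siRPS19 by edgeR's quasi-likelihood test with Benjamini-Hochberg adjustment (39.5% of all tested genes were called higher). They were MT-TA, MT-TN, MT-TC, MT-TY, MT-TP and MT-ND3. The number called lower was 0 in edgeR (38.9% of all tested genes) and 0 also in DESeq2 (25.6% of its genes). It was 0 in limma-voom as well, for which the share of all genes was not worked out here. At an unadjusted p below 0.05, 0 were lower in each of these tools. The median log2 fold change of the 13 mRNAs was 0.14, beside 0.02 for all tested genes, and with library totals it was 0.43 beside 0.31. The sign of that median depended on single libraries: it was -0.10 without siRPS19 replicate 1 and -0.09 without siOTP replicate 3.

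**Figure D2:**
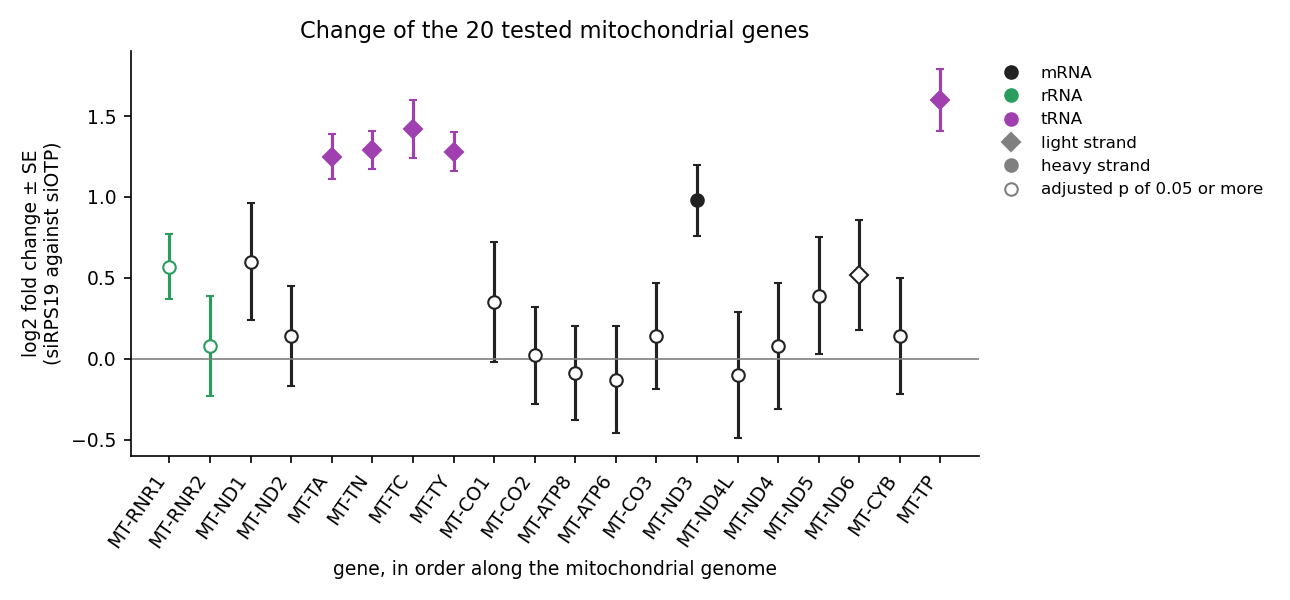
Log2 fold change (siRPS19 against siOTP) with its standard error for the 20 tested mitochondrial genes in genome order, coloured by RNA class, diamonds for the light strand, open symbols for an adjusted p of 0.05 or more. The 5 light-strand tRNAs lie between 1.25 and 1.60, MT-ND3 at 0.98, and the other mRNAs between -0.13 and 0.60 with wide errors.

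The complex I subunits encoded in mitochondria are MT-ND1 to MT-ND6 and MT-ND4L, membrane-arm proteins of NADH dehydrogenase. MT-ND3 had 7451, 7017 and 4679 counts in siOTP and 19200, 13209 and 13921 in siRPS19. In CPM this was 357, 355 and 241 against 738, 572 and 575, so every siRPS19 library was above every siOTP library. The log2 fold change was 0.98 ± 0.22 (SE), a 1.98-fold rise with adjusted p = 0.0125 by edgeR's quasi-likelihood test. It was the only mRNA without overlap of the groups in CPM, where 79.7% of all tested genes had none. Across the alternatives its adjusted p ran from 8.05e-06 to 0.135 and its log2 fold change from 0.80 to 1.27. The call was lost when replicate 1 was left out of both groups (adjusted p = 0.0570) or replicate 2 was (adjusted p = 0.0819). It was also lost when libraries were scaled to their mitochondrial mRNA counts (adjusted p = 0.135), where the standard error rose to 0.42. That fit shares its variance estimates with the other genes, so it cannot decide whether the share of MT-ND3 changed.

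The other complex I mRNAs did not pass the test. MT-ND1 had 1375, 1487 and 853 CPM in siOTP and 2630, 1404 and 1611 CPM in siRPS19, with a log2 fold change of 0.60 ± 0.36 and adjusted p = 0.196 by edgeR's quasi-likelihood test. MT-ND6, the light-strand mRNA, had 478, 518 and 297 CPM against 847, 496 and 514 CPM, with a log2 fold change of 0.52 ± 0.34. In MT-ND1 siRPS19 replicate 2 lay within the range of the siOTP libraries, and in MT-ND6 siRPS19 replicates 2 and 3 did. MT-ND2 (0.14), MT-ND4 (0.08), MT-ND4L (-0.10) and MT-ND5 (0.39) had adjusted p-values of 0.362 to 0.870 by the same edgeR test, their log2 fold changes being given in parentheses. With library totals MT-ND4L was at 0.18, still with adjusted p = 0.683.

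The mRNAs of complexes III and IV also overlapped between the groups. MT-CO1, the catalytic subunit of cytochrome c oxidase, had 9448, 10343 and 5488 CPM in siOTP and 14761, 8191 and 9374 CPM in siRPS19, with a log2 fold change of 0.35 ± 0.37. MT-CO2, which carries the copper centre that takes electrons from cytochrome c, was at 0.02 ± 0.30, MT-CO3 at 0.14 ± 0.33 and MT-CYB, cytochrome b of complex III, at 0.14 ± 0.36. Their adjusted p-values by edgeR's quasi-likelihood test were 0.427 to 0.945. Per kilobase of transcript, the siOTP means were 6159 ± 1631 CPM for MT-CO2, 5564 ± 1572 for MT-CO3 and 5465 ± 1676 for MT-CO1 (SD, n = 3), the 3 highest levels of the 13 mRNAs, which did not differ beyond their spread. MT-ND6 at 821 ± 224, MT-ND3 at 918 ± 192 and MT-ND5 at 941 ± 264 CPM per kilobase were the lowest of the 13 mRNAs in siOTP.

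The ATP synthase subunits MT-ATP6 (proton channel) and MT-ATP8 had log2 fold changes of -0.13 ± 0.33 and -0.09 ± 0.29. MT-ATP6 was at 3630, 3679 and 2134 CPM in siOTP and 3745, 2190 and 2709 CPM in siRPS19, and the groups overlapped over nearly their whole range. With library totals the values of the pair were 0.16 and 0.19, the opposite sign, with adjusted p = 0.682 and 0.568 by edgeR's quasi-likelihood test.

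The rRNAs of the mitochondrial ribosome are MT-RNR1 (small subunit) and MT-RNR2 (large subunit). MT-RNR1 had 8451, 8856 and 5959 counts in siOTP and 17778, 11578 and 13129 in siRPS19, that is 405, 448 and 307 against 683, 501 and 542 CPM. The siRPS19 libraries were all above the siOTP libraries (79.7% of all tested genes did not overlap in CPM). MT-RNR1 had a log2 fold change of 0.57 ± 0.20 with adjusted p = 0.0576 by edgeR's quasi-likelihood test, above the threshold. It passed in 4 of 19 alternatives, among them library totals (log2 fold change 0.86, adjusted p = 0.0144, where 80.6% of all tested genes were called) and DESeq2 (0.55, adjusted p = 0.0109, where 50.3% were). MT-RNR2 was at 0.08 ± 0.31, with 6334, 7317 and 4303 CPM against 8373, 4972 and 5690 CPM. MT-RNR2 counts per MT-RNR1 count were 15.7, 16.3 and 14.0 in siOTP and 12.3, 9.92 and 10.5 in siRPS19, without overlap.

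The 5 light-strand tRNA genes were higher in every siRPS19 library than in any siOTP library. In CPM, 79.7% of all tested genes had no overlap of the groups. MT-TP had 418, 512 and 319 counts in siOTP and 1850, 1441 and 1342 in siRPS19, a 3.03-fold rise (log2 fold change 1.60 ± 0.19, adjusted p = 0.00102 by edgeR's quasi-likelihood test). MT-TA had 434, 464 and 295 counts against 1297, 1122 and 1055 (1.25 ± 0.14, adjusted p = 0.000189). For both, the lowest siRPS19 library lay far above the highest siOTP library.

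The other 3 lie beside MT-TA in the tRNA cluster between MT-ND2 and MT-CO1. MT-TN had 102, 87 and 64 counts against 280, 233 and 242 (1.29 ± 0.12). MT-TC had 159, 153 and 97 against 518, 462 and 357 (1.42 ± 0.18), and MT-TY 132, 133 and 96 against 412, 355 and 307 (1.28 ± 0.12). Their adjusted p-values were 7.27e-09, 7.42e-05 and 3.85e-09 by the same edgeR test, and all 5 tRNAs were called in 19 of 19 alternatives. In the alternatives where it was worked out, 30.8% to 80.6% of all genes were called. Standard errors of the 5 were 0.12 to 0.19, smaller than those of any mRNA. Reads outside annotated genes moved the same way, from 3.68%, 3.85% and 3.39% of all entries in siOTP to 6.36%, 5.13% and 5.93% in siRPS19, and their part in the tRNA result was not tested. The sources used here do not say that strand was used in counting, so reads of these genes and of heavy-strand RNA covering the same bases cannot be told apart. Nor can counts on these genes tell mature tRNAs from uncut precursors.

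**Figure D3:**
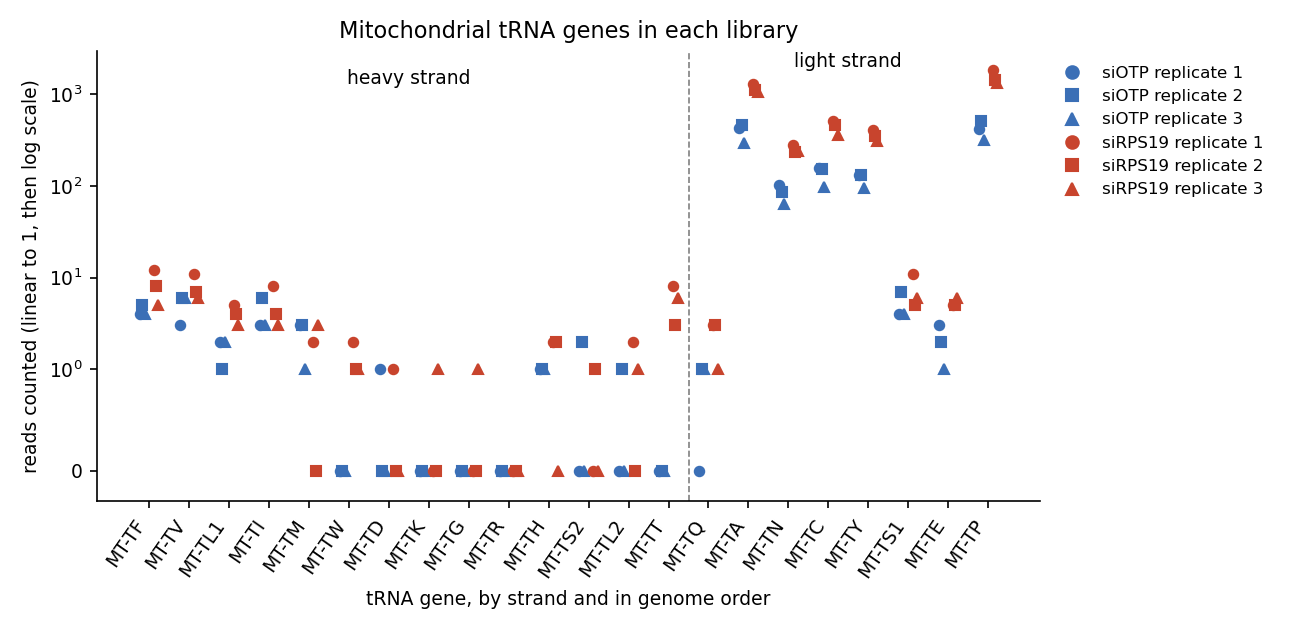
Raw read counts of the 22 mitochondrial tRNA genes in each library, heavy-strand genes left and light-strand genes right of the dashed line, on a scale linear to 1 and logarithmic above. MT-TA, MT-TN, MT-TC, MT-TY and MT-TP stand at 64 to 1850 counts with siRPS19 above siOTP, and the other 17 at no more than 12.

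The other 17 tRNA genes had too few counts to be tested. Whether reads reaching into adjoining genes were left out as ambiguous was not tested, so the RNA levels of these genes are uncertain. The 14 on the heavy strand had at most 12 counts in a library, and MT-TQ, MT-TS1 and MT-TE on the light strand at most 11. MT-TW, the heavy-strand neighbour of MT-TA, had 0, 0 and 0 counts in siOTP and 2, 1 and 1 in siRPS19. MT-TT, the heavy-strand neighbour of MT-TP, had 0, 0 and 0 counts against 8, 3 and 6. MT-TT was called by edgeR only with no filter on low counts, where 43.2% of 33863 genes were called, and by DESeq2. Summed over the 14 heavy-strand genes the counts were 17, 25 and 17 in siOTP and 53, 30 and 30 in siRPS19, against 1252, 1359 and 877 and 4376, 3626 and 3316 for the 8 light-strand genes.

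The tRNA genes were higher also relative to MT-ND6, the mRNA of the same strand. As the use of strand in counting is not stated, MT-ND6 reads too cannot be told apart from heavy-strand RNA over the same bases. MT-TP had 41.9, 50.0 and 55.3 counts per 1000 MT-ND6 counts in siOTP and 83.9, 126 and 108 in siRPS19. For MT-TA the values were 43.5, 45.3 and 51.1 against 58.8, 98.0 and 84.8. None of the 5 tRNAs overlapped between the groups on this scale, where 54.1% of all tested genes did not overlap when divided by the MT-ND6 counts. In each case siRPS19 replicate 1, the library with the highest mRNA level, had the smallest ratio of its group.

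Relative to one another most mRNAs showed less spread between replicates than in CPM. Each mRNA was expressed as its percentage of the counts on the 13 mRNAs. The coefficient of variation of this share was below that of the CPM for 13 of 13 mRNAs in siOTP and 12 of 13 in siRPS19, with medians of 2.45% and 5.12%. The exception was MT-ND3 in siRPS19, at 15.3% for the share and 15.1% for the CPM. On this scale 10 of 13 mRNAs had no overlap between the groups, 5 higher and 5 lower (43.6% of all tested genes had no overlap when divided by the same sum). Higher were MT-ND1, MT-CO1, MT-ND3, MT-ND5 and MT-ND6, and lower were MT-CO2, MT-ATP8, MT-ATP6, MT-ND4L and MT-ND4. With the counts on all 37 genes as the sum, 9 had no overlap, 5 higher and 4 lower, and MT-ND4 overlapped (43.9% of all tested genes had no overlap on that scale). Shares sum to 100 percent, so a higher share of some members lowers that of others, and these shares do not show which transcript changed in amount.

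MT-ND3 made up 0.953%, 0.891% and 1.08% of mRNA counts in siOTP and 1.44%, 1.96% and 1.71% in siRPS19. MT-ND1 went from 3.67%, 3.73% and 3.81% to 5.12%, 4.80% and 4.79%, and MT-CO1 from 24.5% to 26.0% across the siOTP libraries to 27.9% to 28.7% across the siRPS19 libraries. In each of these 3 genes the groups were apart by more than the range of the siOTP libraries. MT-ATP6 showed the opposite order, 9.69%, 9.24% and 9.53% against 7.29%, 7.49% and 8.05%. MT-ND4L was at 1.40%, 1.54% and 1.42% against 1.22%, 1.08% and 1.23%. The whole table was also fitted with libraries scaled to the mitochondrial mRNA counts. The 5 tRNAs were then the called members and none of the 13 mRNAs was called by edgeR (30.8% of all tested genes were called). This scaling puts the spread of mitochondrial counts between libraries into the other genes, with which the fit shares its variance estimates. The standard errors of the mRNAs were 0.42 to 0.43, nearly alike although their shares differed in spread. The fit therefore cannot decide whether a share changed.

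**Figure D4:**
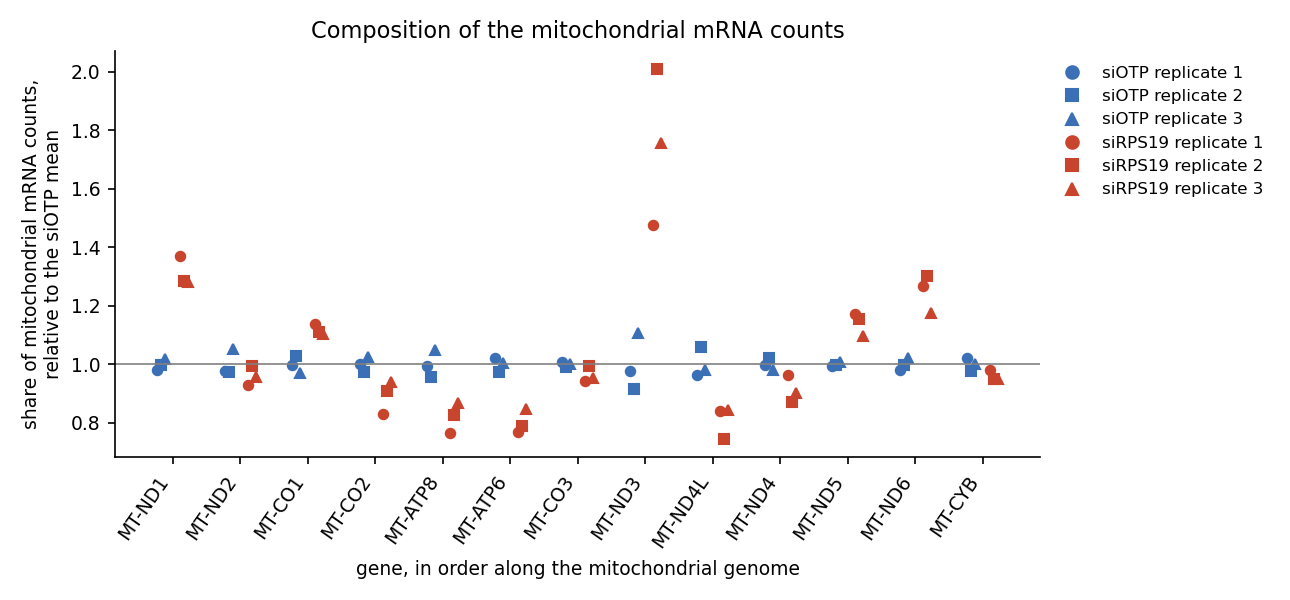
Share of each mRNA among the counts on the 13 mitochondrial mRNAs, divided by its mean share in siOTP, for each library. MT-ND3 reaches 1.44% to 1.96% of mRNA counts in siRPS19 against 0.891% to 1.08% in siOTP and stands highest, while MT-ATP8, MT-ATP6 and MT-ND4L lie lowest in siRPS19.

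Ratios between single members were taken as well. MT-CO1 counts per MT-CO2 count were 1.98, 2.10 and 1.87 in siOTP and 2.71, 2.42 and 2.33 in siRPS19. MT-ATP6 per MT-ATP8 count, the pair on a shared mRNA whose 46 common bases are printed above, was 11.4, 11.3 and 10.6 against 11.1, 10.6 and 10.9, with overlap. MT-ND4 per MT-ND4L count, the other shared mRNA, was 10.1 to 10.9 in siOTP and 11.2 to 12.3 in siRPS19, without overlap. An exact test was run on 11 values: these 3 ratios, MT-CO1 per MT-ATP6, MT-RNR2 per MT-RNR1, the 5 tRNA ratios to MT-ND6, and the share of MT-ND6 among mRNA counts. The exact two-sided permutation test gave p = 0.1 for 10 of them (0.11 after Benjamini-Hochberg adjustment) and p = 0.4 for MT-ATP6 per MT-ATP8. With 3 libraries against 3, 0.1 is the smallest p the test can give.

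Nuclear genome copies of mitochondrial sequence also drew reads. Of 196 annotated pseudogenes or copies found by symbol, 44 had a count and 11 could be tested. By edgeR 0 were called (78.3% of all tested genes were) and 0 had an unadjusted p below 0.05. The edgeR log2 fold changes were -0.04 to 0.52. DESeq2 (50.3% of its genes were called) and limma-voom (share of all genes not worked out here) also called 0, with 0 unadjusted in each. MTATP6P1 on chromosome 1 had 17130, 17016 and 9537 counts in siOTP and 24551, 12540 and 15466 in siRPS19, and it is identical to MT-ATP6 at 671 of 681 bases. Its counts were 22.6%, 23.4% and 23.0% of those on MT-ATP6 in siOTP and 25.2%, 24.8% and 23.6% in siRPS19. The copy thus followed the library order of the mitochondrial mRNA, with siRPS19 replicate 1 highest and siOTP replicate 3 lowest. Of the other copies with many counts, MTND2P28 held 18.7% to 19.3% of the MT-ND2 counts, MTND1P23 2.65% to 3.07% of the MT-ND1 counts, and MTRNR2L12 0.745% to 0.785% and MTRNR2L2 0.533% to 0.584% of the MT-RNR2 counts. Reads of MT-ATP6, MT-ND2 and other members with such copies may have been divided between the 2 places, so their levels are uncertain.

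The nuclear genes that serve mitochondrial genome expression were mostly lower. Of 75 tested genes in 6 lists, 60 fell and 10 rose (38.9% and 39.5% of all tested genes), with a median log2 fold change of -0.62. With library totals 46 fell and 14 rose (27.6% and 53.0% of all tested genes), with a median of -0.33.

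Among 9 transcription factors of mitochondrial DNA, 7 fell and 2 rose (38.9% and 39.5% of all tested genes). On library totals 4 fell and 2 rose (27.6% and 53.0% of all tested genes). POLRMT, the RNA polymerase of mitochondria, was at 91.3, 89.2 and 107 CPM in siOTP and 49.3, 52.1 and 52.9 CPM in siRPS19, a log2 fold change of -0.90 ± 0.06. TFAM, which packages the genome and opens its promoters, fell by 0.79 on the log2 scale, from 127 ± 3.87 to 73.4 ± 3.65 CPM (SD, n = 3). TFB2M, the initiation factor that melts the promoter, fell by 0.94 and MTERF3, a negative regulator of transcription, by 1.31. For these 4 genes the highest siRPS19 library was below the lowest siOTP library (79.7% of all tested genes did not overlap in CPM). MTERF2 rose by 0.38 and TFB1M, which methylates the small rRNA, by 0.26. The falls of MTERF4 (-0.26) and TEFM (-0.32) were lost with library totals, at 0.03 and -0.04.

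Of 16 genes for replication and upkeep of the mitochondrial genome, 12 fell and 4 rose (38.9% and 39.5% of all tested genes). On library totals 10 fell and 4 rose (27.6% and 53.0% of all tested genes). DNA2, a nuclease and helicase that also acts in the nucleus, was at 52.3 ± 2.69 CPM in siOTP and 9.90 ± 1.18 CPM in siRPS19 (SD, n = 3), a log2 fold change of -2.40 ± 0.07. POLG, the DNA polymerase, fell by 0.67, TWNK, the helicase, by 0.89, and LIG3, the ligase, by 1.06. ATAD3A, a membrane protein of nucleoids, fell by 1.32 and RNASEH1, which removes RNA primers, by 1.01. RRM2B, the p53-inducible ribonucleotide reductase subunit, rose from 75.9 ± 1.64 to 149 ± 4.25 CPM, a log2 fold change of 0.97 ± 0.04. The other 3 that rose were TK2 (0.72) and TYMP (0.84), both enzymes of thymidine metabolism, and the nuclease MGME1 (0.43).

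The enzymes that cut and modify the precursors had 13 of 17 tested members lower and 2 higher (38.9% and 39.5% of all tested genes). On library totals 9 were lower and 4 higher (27.6% and 53.0% of all tested genes). ELAC2, which cuts the 3′ ends of tRNAs in mitochondria and the nucleus, was at 249, 241 and 250 CPM in siOTP and 110, 106 and 107 CPM in siRPS19, a log2 fold change of -1.20 ± 0.04. TRMT10C, a subunit of the RNase P that cuts the 5′ ends, fell by 0.94, and HSD17B10, its partner subunit, rose by 0.32. PUS1 (-1.22) and TRMU (-1.34), which modify tRNA bases, MRM3 (-1.25), a methyltransferase of the large rRNA, and MTPAP (-1.08), the poly(A) polymerase, fell, while the tRNA-modifying MTO1 rose by 0.92. PRORP, the catalytic subunit of that RNase P, was too low to be tested, with at most 13 counts in a library. Whether PRORP reads were left out as ambiguous was not tested.

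For stability and decay of mitochondrial RNA, 11 of 14 genes fell and 1 rose (38.9% and 39.5% of all tested genes). On library totals 8 fell and 2 rose (27.6% and 53.0% of all tested genes). SLIRP, the partner of LRPPRC, fell by 0.99, the exonuclease PNPT1 by 1.07 and its helicase SUPV3L1 by 0.71. PNPT1 was at 142, 140 and 142 CPM in siOTP and 67.3, 68.2 and 66.8 CPM in siRPS19. LRPPRC, which binds and stabilises mitochondrial mRNAs, fell by 0.28 with TMM scaling but was at 0.01 with library totals (adjusted p = 0.836 by edgeR's quasi-likelihood test). The RNA-granule proteins TBRG4 (-1.19), GRSF1 (-0.98), FASTKD2 (-0.99) and FASTKD5 (-0.81) fell, and REXO2, which degrades short RNA remnants, rose by 0.27.

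Of 12 mitochondrial translation factors 10 fell and 1 rose (38.9% and 39.5% of all tested genes). On library totals 8 fell and 2 rose (27.6% and 53.0% of all tested genes). Those that fell included the recycling factor MRRF (-1.33), the elongation factors TUFM (-0.71) and TSFM (-0.80) and the initiation factor MTIF2 (-0.62). MTIF3, also an initiation factor, rose by 0.34. All 7 tested regulators of nuclear mitochondrial genes fell on either scale, including PPRC1 (-1.59), NRF1 (-1.11), YY1 (-0.85) and GABPB1 (-0.74). Of all tested genes 38.9% fell with TMM and 27.6% with library totals. PPARGC1A, the coactivator known for mitochondrial biogenesis, was not testable at 2, 5 and 4 counts in siOTP and 4, 0 and 3 in siRPS19.

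The nuclear subunits that assemble with the mitochondrial proteins were lower with TMM scaling, but their split depended on the scaling. Of 41 tested subunits, those of complex II included, 32 fell and 1 rose (38.9% and 39.5% of all tested genes). The median log2 fold change was -0.42. With library totals 17 fell and 13 rose (27.6% and 53.0% of all tested genes), with a median of -0.13. With upper-quartile factors 25 fell and 5 rose (32.1% and 47.7% of all tested genes). By complex the genes that fell with TMM were 5 of 7 in complex I, 7 of 8 in complex III, 9 of 10 in complex IV and 9 of 12 in ATP synthase. ATP5F1B, the catalytic subunit of ATP synthase, fell by 1.44 on the log2 scale, from 1386 ± 13.8 to 512 ± 11.4 CPM (SD, n = 3). ATP5MF (-0.88), ATP5F1C (-0.83) and ATP5F1A (-0.67) of the same enzyme fell as well. In complex III CYC1, cytochrome c1, fell by 1.13, UQCRH by 0.92, UQCRFS1, the iron-sulfur protein, by 0.84 and UQCRC2 by 0.59. In complex IV COX6A1 fell by 1.08, COX7A2 by 0.64, COX4I1 by 0.54 and COX5A by 0.48. In complex I NDUFS1 fell by 0.81 and NDUFS3 by 0.78. NDUFV2 fell by 2.04 from a mean of only 0.917 CPM, with 17, 21 and 17 counts in siOTP and 6, 8 and 2 in siRPS19. Whether NDUFV2 reads were left out as ambiguous was not tested, so its level and its fall are uncertain. Complex II has no mitochondrially encoded subunit: SDHB fell by 1.43, SDHD by 0.42 (not called with library totals, at -0.14), and SDHA rose by 0.35.

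**Figure D5:**
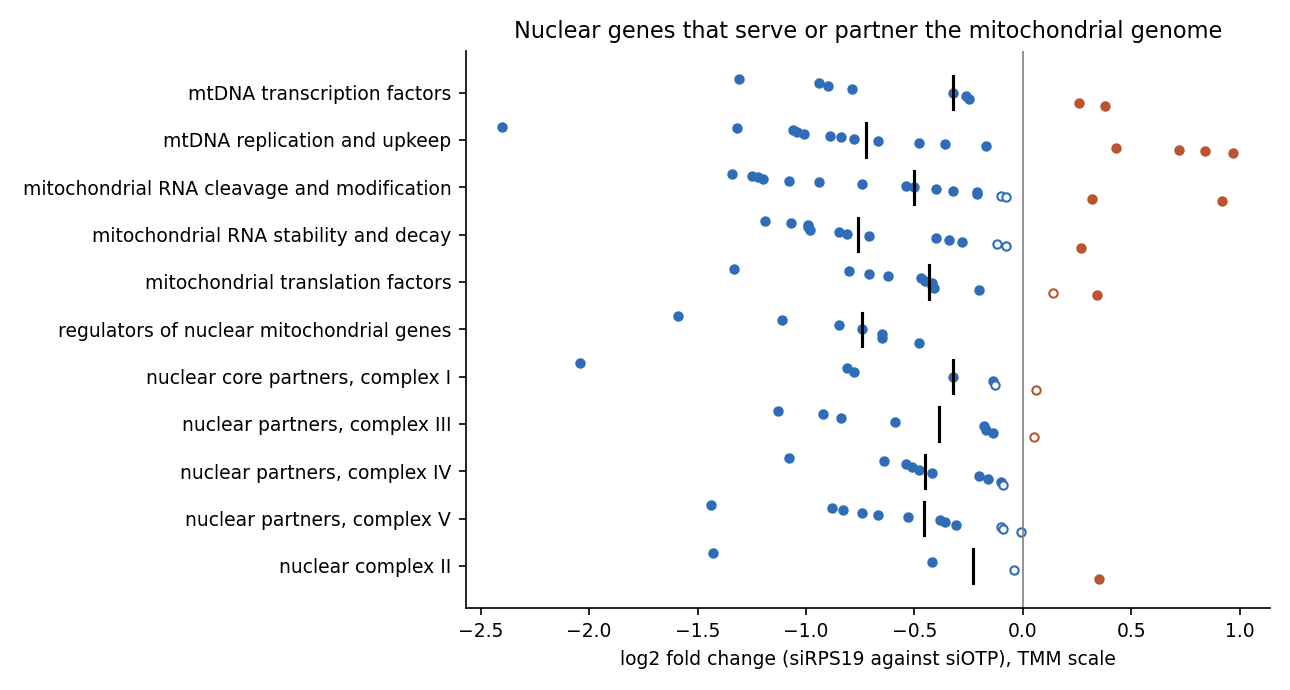
Log2 fold change (siRPS19 against siOTP, TMM scale) of each tested nuclear gene in 11 lists, filled where edgeR's adjusted p was below 0.05, with a black bar at the list median. Most filled points lie below 0, with medians from -0.76 to -0.23, and among the genes that rose are RRM2B (0.97) and MTO1 (0.92).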

How the data were processed

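Gene-level read counts, deposited by the authors as whole numbers without normalisation, were available for each of 6 libraries, together with a table holding 1 RPKM value and 1 mean count per group. In that table the mean counts were the library means plus 1 (125458 of 125458 values within 0.01 counts). TopHat2 2.0.8b, HTSeq, DESeq, R 3.0.2 and build hg19 are listed in the submitters' processing notes. Counting mode, strand setting, annotation release and the mitochondrial reference sequence: not given in the sources used here. Symbols, positions and lengths came from the deposited table. Its RPKM values, which the authors scaled by totals, were higher in siRPS19 for all 15 mRNAs and rRNAs in the authors' deposited table.

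Reads without a gene were left out, including ambiguous reads (7.50% to 8.24% of entries). Reads aligned more than once were listed at 0. Genes were filtered with filterByExpr (minimum count 10, minimum total 15) and compared with edgeR 4.0.16 in R 4.3.3 (TMM, robust quasi-likelihood test, no block). Benjamini-Hochberg adjustment covered 17171 genes, with a threshold of 0.05. Where no tool is named, an adjusted p-value is edgeR's, and ± after a log2 fold change is its SE. Tested on simulated data for this comparison (16750 genes), the fit recovered 92.5% of the 67 genes given a 2-fold change and made 8 false calls. The simulation gave all genes the same dispersion and left most unchanged, unlike these data. It therefore does not show the power for the mitochondrial mRNAs, whose spread was larger than that of most genes. Alternatives were 5 other scalings, 2 filters, DESeq2 1.42.0, limma-voom (limma 3.58.1), a replicate block, and leaving out libraries or replicate numbers.

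Same-numbered libraries of both groups carry the same date in the labels, though the labels do not say what was done on it. These libraries were taken as pairs in the replicate block and in the correlations given next, but not in the main fit. Their deviations from the group means correlated over genes, which are not replicates, at 0.119, -0.133 and 0.0882. Replicates differed by more than sampling noise (chi-square per degree of freedom 4.40 to 16.6). Copies were aligned with Biopython 1.88 on GENCODE 29 sequences (GRCh38). Members and gene lists were chosen with earlier results of these data known. Named are all mitochondrial genes, RPS19, 13 nuclear genes whatever their result, up to 4 further genes per list with the smallest p, and the 5 pseudogenes with the most counts. The nuclear genes that rose are all named. Those outside this rule (TFB1M, TK2, TYMP, MGME1, HSD17B10, MTO1, REXO2 and MTIF3), and PRORP, were chosen after their values were seen. One gene under the rule is not reported here.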

Additional observations from a re-analysis of the deposited data

Results flagged for a closer look

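Reads outside annotated genes, which enter no comparison of genes, made up a mean of 5.81% of entries in siRPS19, above the 3.64% of siOTP, with no overlap between the libraries. MT-TT, a tRNA gene below the filter, had 17 counts over the siRPS19 libraries and 0 over siOTP, and it was called with no filter (adjusted p = 0.000230, edgeR) and in DESeq2 (adjusted p = 0.00724).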

How the results depend on the processing

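With the replicate block (libraries with the same number and date paired), 6 mitochondrial genes were called as without it, MT-ND3 with adjusted p = 0.0183. Of all tested genes 78.3% were called without the block, and the share with it was not worked out here. The block ended no call named here. Called mitochondrial genes numbered 5 to 8 over the alternatives. The number was 5 when scaled by mitochondrial mRNA counts, where 30.8% of all tested genes were called. It was 7 with library totals (80.6%) and 8 in DESeq2 (50.3% of its genes). Library totals moved the nuclear partner subunits to 13 higher and 17 lower (53.0% and 27.6% of all tested genes). Upper-quartile factors moved them to 5 higher (47.7% of all tested genes). These scalings shift all genes up (median 0.31 and 0.20).

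Signs turned in mitochondrial genes that were not called under any alternative. Scaled by mitochondrial mRNA counts, log2 fold changes were -0.12 for MT-RNR2, -0.06 for MT-ND2, -0.16 for MT-CO2, -0.05 for MT-CO3, -0.13 for MT-ND4 and -0.06 for MT-CYB. MT-CO2 was at -0.03 with no filter and -0.01 in DESeq2. With library totals MT-ATP8 was at 0.19, MT-ATP6 at 0.16 and MT-ND4L at 0.18, and with upper-quartile factors at 0.08, 0.04 and 0.07. LRPPRC (0.01) and MTERF4 (0.03) turned with library totals. The cause was not tested. Leaving out libraries or replicate numbers gave -0.15 to 0.39 for MT-RNR2, -0.09 to 0.40 for MT-ND2, -0.20 to 0.29 for MT-CO2, -0.30 to 0.16 for MT-ATP8, -0.36 to 0.15 for MT-ATP6, -0.10 to 0.41 for MT-CO3, -0.40 to 0.29 for MT-ND4L, -0.24 to 0.42 for MT-ND4 and -0.14 to 0.43 for MT-CYB. Leaving out each of the 6 libraries in turn, the difference in mitochondrial share ran from 0.572 to 1.94 points. Replicate spread rather than depth limits the mRNAs, and 17 tRNAs with 12 counts or fewer were below the filter.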

Other observations

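A run of 7 annotated genes on chromosome 1, found by position after values had been seen, holds nuclear copies of mitochondrial mRNA genes, and the gene that the authors' table names after a microRNA is among them. The entry hsa-mir-6723 (chromosome 1, 566454 to 567996, hg19 per the submitters' notes) is 1543 bases long and matched MT-CO1 at 1522 of 1542 aligned bases. It had 34807, 38523 and 19265 counts in siOTP and 70998, 34150 and 41618 in siRPS19, which were 17.6%, 18.8% and 18.1% and 18.5%, 18.1% and 18.4% of the MT-CO1 counts. Its log2 fold change was 0.36 ± 0.38, beside 0.35 ± 0.37 for MT-CO1, and neither passed edgeR's test. The neighbouring entries RP5-857K21.7 and RP5-857K21.11 matched MT-CO2 (97.9% identity) and MT-CO3 (98.2% identity) best.

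Over the 7 genes of the run, counts were 9.15%, 9.55% and 9.29% of the mitochondrial mRNA counts in siOTP and 9.56%, 9.45% and 9.49% in siRPS19, while their share of all gene counts ranged from 0.189% to 0.535% between libraries. Whether these reads arose from the nuclear copies or from the mitochondrial genes was not tested, and a count on the entry with the microRNA's name is not a measurement of that microRNA.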
